A study of Drosophila melanogaster with 19 samples.

Results

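The comparison is between sorted cells and whole embryos of the control line of the ttk mutant experiment. Its members are the 3 arrays titled as sorted tracheal and midline cells of the mutant control and the 2 arrays titled as whole embryos of the same control, 5 of the 19 arrays of the series, and all 12679 genes with a FlyBase number were compared on them. The question is which cell identities gained and which lost when cells with an active btl enhancer were sorted out of the embryo. Both groups carried the same genotype, btl-enh-RFPmoe, in which the breathless enhancer drives a red fluorescent moesin fusion, and neither carried the ttk mutation. The embryos were laid over 7 h 40 min at 25°C and aged for a further 5 h 20 min. Embryos were sorted by machine. The study's methods describe picking homozygous mutants there by the absence of the green fluorescent balancer chromosome. They do not say how the control embryos of these arrays were picked. Pools of embryos were used for the embryo arrays. For the cell arrays pools of sorted embryos were homogenised and treated with trypsin. From these 100000 red fluorescent cells per sample were sorted, through a further gate on DNA content that kept cells in the G0/G1 phases. Embryo RNA was taken with Trizol and cell RNA with a column kit, so the material and the extraction cannot be told apart in any value given here. The btl enhancer is active in the trachea and the midline. The study's authors also saw the reporter in a range of other cells, among them lateral ectoderm, endoderm and amnioserosa. Values of the over-expression controls (btl-GAL4 btl-enh-RFPmoe by their titles, with another stock in the growth notes, 3 embryo and 2 cell arrays, reared at 29°C) and of ttk mutants carrying the same reporter (ttk2D50 btl-enh-RFPmoe, 2 arrays of each material) are set beside those of these controls. RNA of the sorted cells was pooled over sorting runs of a week. In either material fewer cells of a type and less RNA per cell cannot be told apart.

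The trachea of the fly embryo is a network of epithelial tubes that grows from clusters of ectodermal cells on each side of the body. The transcription factor Trachealess sets tracheal fate and switches on breathless, the receptor for the fibroblast growth factor that guides branch outgrowth. Cells of the ventral midline take their fate from Single-minded, a close relative of Trachealess, and express breathless as well. Blood cells (haemocytes) arise from the head mesoderm under the GATA factor Serpent, move through the whole embryo, engulf dying cells and lay down basement membrane.

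Values are the deposited log2 expression values, and each array was centred on the median of its genes before groups were compared. A log2 fold change is the mean of the cell arrays minus the mean of the embryo arrays. Candidates follow the study's rule, a log2 fold change of at least 1 in size with an unadjusted p of 0.05 or below, here from limma. The median deposited value was 7.43 and 7.44 on the embryo arrays and lay between 6.84 and 6.97 on the cell arrays, while the lowest 1% of genes ended between 2.11 and 2.29 on all 5. Centring therefore added 0.55 to every log2 fold change, and genes near the floor of the array gained by it. Where this decides a statement, the value as deposited stands beside the centred one. The 16 hybridization spike-in features of the arrays differed between cells and embryos by −0.11 to 0.32 in the deposited values, with a median of 0.07. Embryo replicate 2 stood apart: its Spearman's correlation with embryo replicate 1 was 0.894, below the 0.927 to 0.953 of embryo replicate 1 with the 3 cell arrays and the 0.96 to 0.982 among the cell arrays. On 26.2% of the genes at least 2 cell arrays held exactly the same value, and 0 genes had the same value on an embryo and a cell array. The files give FlyBase numbers without names. The study's own table named 9 of them and the RefSeq gene table another 103, so that most tissue markers, among them He, Hml, NimC1, peb, elav, repo, GATAe and vas, were not analysed here.

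The tracheal and midline regulators had higher means in the sorted cells, but 1 of the 3 cell arrays lay much closer to the embryos than the others. Trachealess (trh, FBgn0003749) had 9.45 and 8.23 in embryos and 10.53, 10.53 and 8.62 in cells, in deposited log2 values. Cell replicates 1 and 2 were above both embryo arrays and cell replicate 3 was between them. The centred log2 fold change of trh was 1.61 (SE 0.75, limma adjusted p = 0.283), where SE is the standard error. Without cell replicate 3 it was 2.23, past the study's thresholds. Cell replicate 3 was the cell array nearest to the embryos, so leaving it out had to enlarge the change and is no separate support. Breathless (btl, FBgn0005592), which also supplies the enhancer of the sort, had 8.20 and 7.02 in embryos and 8.81, 8.61 and 7.15 in cells. Again cell replicate 3 fell within the range of the embryos, and the log2 fold change of 1.13 (SE 0.65, limma adjusted p = 0.353) became 1.64 without it.

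Dysfusion (dys, FBgn0039411), a transcription factor of the fusion cells at the tips of tracheal branches, had 4.40 and 3.58 in embryos and 5.59, 5.40 and 4.41 in cells. After centring, every cell array was above both embryo arrays, while as deposited cell replicate 3 was level with embryo replicate 1. The value on embryo replicate 2 was near the floor of the array. The gene was the only tracheal or midline regulator measured to pass the study's thresholds in the fit of all 5 arrays. Its log2 fold change was 1.69 (SE 0.48, unadjusted p = 0.0169, limma adjusted p = 0.169), and the call was lost in the values as deposited, with array weights, without cell replicate 2 and without embryo replicate 2. Single-minded (sim, FBgn0004666) had 7.90 and 6.37 in embryos and 9.06, 8.34 and 7.38 in cells. Its groups did not overlap after centring, its log2 fold change was 1.68 (SE 0.70, limma adjusted p = 0.253), and it was 2.10 without cell replicate 3 and 2.45 without embryo replicate 1, past the thresholds in both. For all 4 of these genes cell replicate 3 was the lowest cell array and embryo replicate 2 the lower embryo array. Leaving out cell replicate 3 or embryo replicate 1 therefore had to raise their log2 fold changes.

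**Figure D1:**
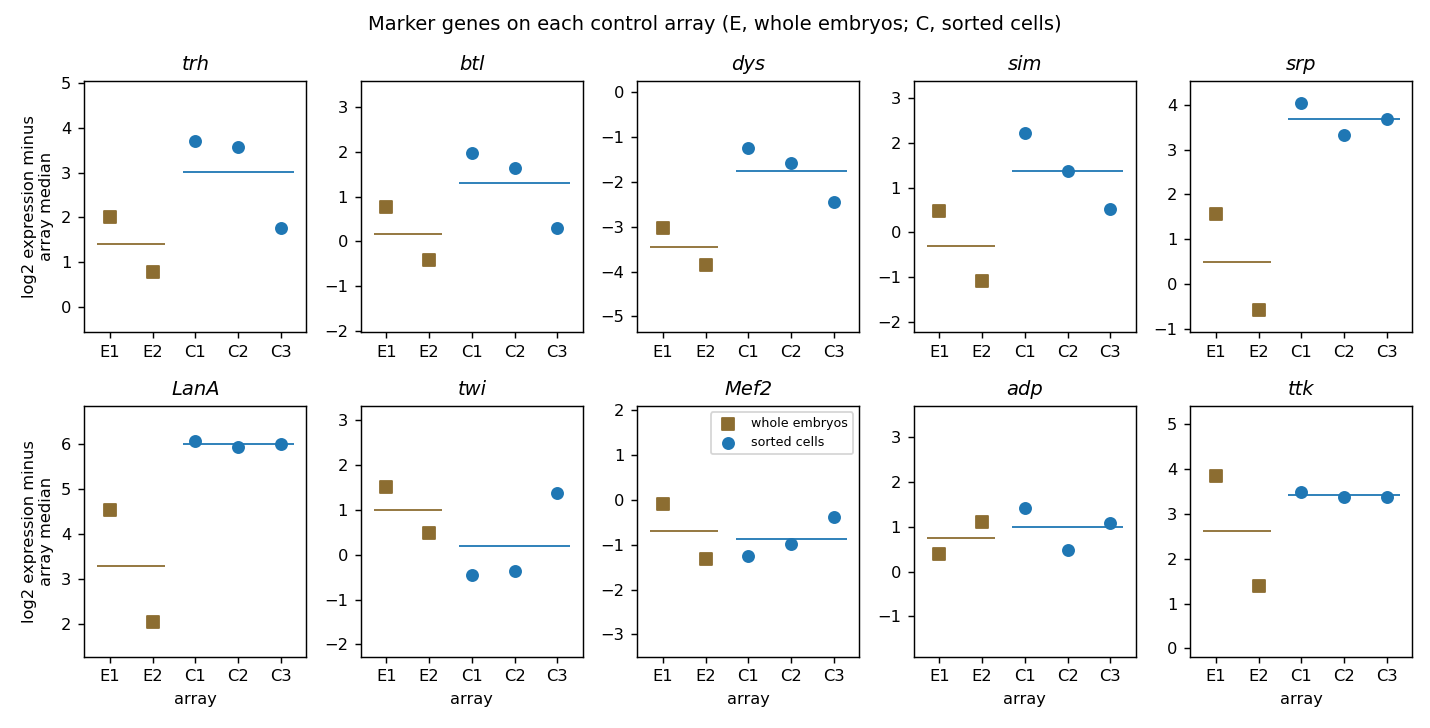
Log2 expression minus the array median (y axis) of 10 genes on the 2 embryo arrays (E1, E2, squares) and the 3 sorted cell arrays (C1 to C3, circles), with the group means as lines. Each panel spans the same number of log2 units. The points of C3 drop towards the embryo level for trh, btl, dys and sim and rise to it for twi, while srp and LanA stay level over C1 to C3.

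The largest rise among the 9 genes named by the study's table was that of serpent (srp, FBgn0003507), the GATA factor of blood cells, fat body and endoderm. It had 8.99 and 6.87 in embryos and 10.87, 10.31 and 10.53 in cells. All 3 cell arrays lay far above both embryo arrays, cell replicate 3 included, and they were more alike than the embryo arrays. The log2 fold change was 3.19 (SE 0.68, unadjusted p = 0.00563, limma adjusted p = 0.118). It was 2.64 as deposited, 2.12 without embryo replicate 2 and 4.25 without embryo replicate 1, and srp passed the study's thresholds in each of these. Laminin A (LanA, FBgn0002526), an alpha chain of the laminin of basement membranes, had 11.96 and 9.48 in embryos and 12.91, 12.91 and 12.87 in cells. The cell arrays were again level and above both embryo arrays, with a log2 fold change of 2.72 (SE 0.75, unadjusted p = 0.0155, limma adjusted p = 0.165). It was 1.48 without embryo replicate 2, and its call was lost without cell replicate 2. The other measured member of the haemocyte list, gcm2, a transcription factor of blood cells and glia, had 5.94 and 5.89 in embryos and 5.36, 4.62 and 5.87 in cells, with overlapping groups after centring and a log2 fold change of −0.08 (SE 0.45, limma adjusted p = 0.921). Of the haemocyte list 2 of 19 entries could be paired with a FlyBase number, so the list as a whole was not measured. The markers that would tell blood cells from fat body and endoderm were not analysed here, and the source of the srp signal was not tested.

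The mesoderm gene twist had a lower mean in the sorted cells, again with cell replicate 3 apart from the other cell arrays. Twist (twi, FBgn0003900), which sets mesodermal fate, had 8.94 and 7.92 in embryos and 6.37, 6.62 and 8.23 in cells. Cell replicates 1 and 2 lay below both embryo arrays, and cell replicate 3 lay between them. The centred log2 fold change was −0.81 (SE 0.70, limma adjusted p = 0.514), and without cell replicate 3 it was −1.40, past the study's thresholds. As this was the cell array nearest to the embryos, leaving it out had to enlarge the fall. The muscle factor Mef2 (FBgn0011656) had 7.34 and 6.13 in embryos and 5.57, 5.99 and 6.47 in cells. Its groups overlapped, and the log2 fold change of −0.18 (SE 0.48, limma adjusted p = 0.841) turned to 0.44 without embryo replicate 1. Adipose (adp, FBgn0000057), a regulator of fat storage, had 7.82 and 8.55 in embryos and 8.24, 7.46 and 7.94 in cells. Its log2 fold change was 0.24 (SE 0.39, limma adjusted p = 0.729) after centring and −0.30 as deposited, so that it has no settled direction.

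Tramtrack itself (ttk, FBgn0003870), a zinc-finger repressor with broad expression, had 11.27 and 8.83 in embryos and 10.33, 10.35 and 10.23 in cells. The cell arrays lay between the embryo arrays. The log2 fold change of 0.80 (SE 0.74, limma adjusted p = 0.539) was −0.43 without embryo replicate 2 and 2.03 without embryo replicate 1, so its sign rested on which embryo array was kept.

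Over all genes, 1083 were candidates for higher expression in sorted cells, 8.54% of those tested, and 553 for lower expression, 4.36%. At an adjusted p of 0.05 from limma the counts were 33, or 0.26%, and 41, or 0.323%. Without embryo replicate 1 the candidates were 2138 and 1297, and without cell replicate 1 the higher ones were 651. As deposited, without centring, 399 genes were higher, 3.15%, and 1810 lower, 14.3%, by the study's rule, and all 399 and all 553 were among the candidates of the same direction on the other scale. After centring, candidates for higher expression were most frequent among the genes with the strongest signal. In the fifth of genes with the highest mean, 15.4% were higher and 1.14% lower, and in the fifth with the lowest mean 3.27% were higher and 1.46% lower. Among the genes of highest mean these were 390 against 29, and as deposited 155 against 202, so the direction there turned with the scaling. The genes with the largest fitted changes at an adjusted p of 0.05 could not be named. FBgn0034126 had centred values of −2.05 and −1.31 in embryos and 3.94, 3.51 and 3.37 in cells, and FBgn0053465 had −4.04 and −4.41 in embryos and 1.47, 0.60 and 0.87 in cells. The log2 fold change of FBgn0034126 was 5.29, and both genes had an adjusted p of 0.0292 from limma. In the other direction FBgn0041337 had 1.34 and 2.30 in embryos and −3.45, −3.59 and −3.47 in cells. FBgn0039200 had 0.62 and 1.78 in embryos and −4.14, −4.33 and −3.77 in cells. Their adjusted p was 0.0292 and 0.0327 from limma. FBgn0053465 in embryos and FBgn0041337 and FBgn0039200 in cells had deposited values below 4, near the floor of the array, so the size of their changes is not given. These 4 genes were picked by their fitted change and adjusted p on these same arrays, so the separation of their groups is no separate support.

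Among the 112 genes with a name, 8 were candidates for higher and 5 for lower expression, 7.14% and 4.46%, which is near the share over all genes. None reached an adjusted p of 0.05 in limma, while 13 had an unadjusted p of 0.05 or below and a change of at least 1. These 13 were singled out after their values were seen. Besides dys, srp and LanA, the higher ones included genes of secretion and of the cell surface. Sec24CD, a cargo-binding subunit of the coat that carries proteins out of the endoplasmic reticulum, had 10.15 and 10.19 in embryos and 11.54, 10.93 and 11.21 in cells, a log2 fold change of 1.60 (SE 0.29, limma adjusted p = 0.0938). Meltrin, a membrane-bound metalloprotease of the ADAM family, had 6.98 and 6.80 in embryos and 8.09, 8.01 and 8.01 in cells. Its log2 fold change of 1.69 had the smallest standard error among the 13, 0.21, with a limma adjusted p = 0.0555. Meltrin was level over the 3 cell arrays, with exactly the same deposited value on cell replicates 2 and 3. Sec24CD varied more among the cell arrays than between the embryo arrays. Both genes passed the study's thresholds as deposited too. Trehalase (Treh), which splits the blood sugar trehalose, had 8.26 and 7.80 in embryos and 8.66, 9.0 and 8.32 in cells, with a log2 fold change of 1.18 that lost its call as deposited, at 0.63, and without embryo replicate 2, at 0.94. CG10764 rose by 3.26 (SE 0.73, limma adjusted p = 0.125), from 4.33 and 3.01 in embryos to 7.16, 5.35 and 6.65 in cells. The value on embryo replicate 2 was near the floor of the array, so the size of this rise is uncertain. CG10073 passed with a log2 fold change of 1.45, lost its call as deposited and after quantile normalization, and when single arrays were left out kept it only without embryo replicate 1.

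The lower named genes were of mixed roles. CG4570 had 9.33 and 9.26 in embryos and 6.12, 6.12 and 7.66 in cells, a log2 fold change of −2.11 (SE 0.57, limma adjusted p = 0.162). As for twi, cell replicate 3 was the cell array nearest to the embryos, and the call was lost with array weights and without embryo replicate 1. CG34165 fell by 1.69 on the log2 scale. CG13247 fell by 1.37 and lost its call without embryo replicate 2, at −0.98. The tubulin of male germ cells, betaTub85D, was near the floor in cells, with 3.08, 3.55 and 3.27 against 4.65 and 5.67 in embryos, and lost its call without embryo replicate 2 and without cell replicate 1. The histone chaperone Nasp had 10.41 and 9.41 in embryos and 7.45, 7.75 and 8.65 in cells, and its log2 fold change of −1.41 (SE 0.51, limma adjusted p = 0.221) lost its call without embryo replicate 1, at −0.91, without cell replicate 1 or 2, and with array weights.

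Nasp belonged to a group of 12 named genes that act in the nucleus, on chromatin, transcription, RNA splicing, DNA precursors or protein modification. This group and those that follow were put together from the roles of named genes with their values known. Of the 12, 9 had a negative log2 fold change, and the median was −0.43 against 0.17 over all genes. Nasp was the 1 candidate for lower expression, 8.33% of the group against 4.36% of all genes. The Mediator subunit MED1 had 8.92 and 8.39 in embryos and 7.33, 6.86 and 7.69 in cells, and thymidylate synthase (Ts), which makes a DNA precursor, had 7.76 and 7.98 in embryos and 6.50, 6.14 and 7.34 in cells. In the deposited values both were lower on every cell array than on either embryo array, while after centring the groups overlapped for Ts and not for MED1. For both cell replicate 3 lay nearest to the embryos. Their centred log2 fold changes of −0.81 and −0.66 had limma adjusted p = 0.283 and 0.411, and the cohesin loader Mau2 had −0.75. The sort gate on DNA content and this group move in the same samples, and the part of the gate was not tested.

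A further 9 genes of energy and carbohydrate metabolism had a median log2 fold change of 0.41, against 0.17 over all genes. Treh was the only candidate, 11.1% of the group against 8.54% of all genes. The median was −0.14 as deposited, against −0.38 over all genes. On that scale there were 0 higher and 1 lower candidate, where 3.15% of all genes were higher and 14.3% lower. The centred median was −0.18 without embryo replicate 1, so the group has no settled direction. Both measured subunits of the energy sensor AMP-activated kinase lay higher in cells after centring, AMPKalpha by 0.68 and SNF4Agamma by 0.65, without passing the test, and by 0.13 and 0.10 as deposited. Aldehyde dehydrogenase (Aldh) had 7.98 and 11.06 in embryos and 9.69, 10.57 and 9.03 in cells, so that the cell arrays lay within the gap of the embryo arrays. A group of 15 named genes of sperm formation and of the Y chromosome, among them ORY, Ppr-Y and S-Lap8, gave the reading of the array at its floor. Their median centred level was −4.50 and −4.64 in embryos and −3.85, −4.15 and −3.77 in cells. The median log2 fold change was 0.53 after centring and −0.02 as deposited, and 12 of the 15 had a positive centred value. The 1 candidate was betaTub85D, for lower expression, 6.67% of the group against 4.36% of all genes. The rise in the centred values is thus of the size that centring adds.

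**Figure D2:**
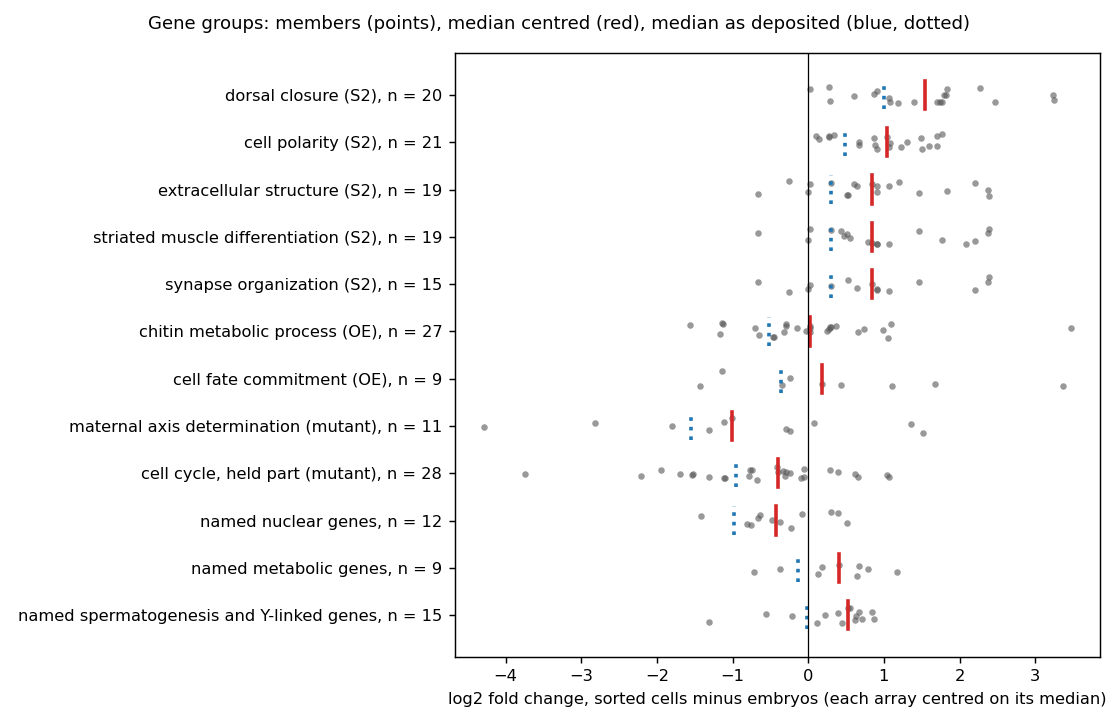
Log2 fold change of sorted cells minus embryos (x axis) for the measured members of 12 gene groups (points), with the group's median after centring (red line) and as deposited (blue dotted line). Groups marked S2 were chosen in another cell system, those marked OE on the over-expression arrays and those marked mutant on mutant against control arrays of this experiment. After centring the points of the dorsal closure and cell polarity groups all lie above 0 and those of the maternal axis group mostly below it.

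For groups beyond the named genes, the study's annotation of FlyBase numbers was used, in which genes that moved in other comparisons are sorted under Gene Ontology terms. Lists that came from knock-down of ttk in S2 cells, a blood-cell-like embryonic line, owe nothing to these arrays. In all, 223 genes under such terms were measured here. Of these 37 were candidates for higher expression in sorted cells, 16.6% against 8.54% of all genes, and 3 for lower expression, 1.35% against 4.36%. As deposited 13 were higher and 15 lower, so the centring decided which direction had more calls. On that scale 3.15% of all genes were higher and 14.3% lower. The median log2 fold change of the 223 genes was 0.70 after centring, against 0.17 over all genes. As deposited it was 0.16, against −0.38. These genes are strongly expressed, with a median centred level of 2.00 on embryo replicate 1, and the share of higher candidates was similar to the 15.4% of the fifth of genes with the highest mean. Without embryo replicate 2 their median was 0.17, against 0.21 over all genes, and without embryo replicate 1 it was 1.18. In the over-expression controls their median was 0.45, against 0.43 over all genes, and in the ttk mutants 0.19, against 0.19.

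The term with the largest median among those examined was dorsal closure, the spreading of the lateral epidermis over the amnioserosa. After centring all 20 measured genes had a positive log2 fold change, 8 were candidates for higher expression, 40% of them against 8.54% of all genes, and the median was 1.55. As deposited 17 of the 20 were positive, 2 were candidates and the median was 1.00. On that scale 3.15% of all genes were higher and 14.3% lower, and the median over all genes was −0.38. By array, the median centred level was 2.13 and 0.66 in embryos and 3.29, 2.52 and 2.96 in cells, with each cell array above both embryo arrays. As deposited the same median was 9.56 and 8.10 in embryos and 10.13, 9.50 and 9.81 in cells, and cell replicate 2 was below embryo replicate 1. On both scales embryo replicate 2 lay lowest, and without it the median log2 fold change was 0.49. All 21 genes of establishment or maintenance of cell polarity were positive after centring, with a median of 1.04. Of them 4, or 19%, were candidates for higher expression, against 8.54% of all genes. As deposited 16 of them were positive, with a median of 0.49 and 1 candidate. Extracellular structure organization had a median of 0.84 with 4 of 19 genes higher, 21.1%, and 0 lower. The immune system list, cut short in the copy used, had a median of 1.03 with 8 of 26 higher, 30.8%, and 0 lower. As deposited their medians were 0.30 and 0.48, against −0.38 over all genes. On that scale 2 were higher and 1 lower in the first and 4 higher and 2 lower in the second. Over all genes 3.15% were higher and 14.3% lower as deposited. Lists named for muscle and nerve had medians of like size. Striated muscle cell differentiation had a median of 0.84 with 3 of 19 genes higher, 15.8%. Synapse organization had a median of 0.84 with 2 of 15 higher, 13.3%, and both had a median of 0.30 as deposited. The share of higher candidates was 15.4% in the fifth of genes with the highest mean. Without embryo replicate 2 the median was 0.26 for cell polarity, 0.16 for extracellular structure and 0.45 for the immune list. It was 0.16 for striated muscle and 0.16 for synapse organization, against 0.21 over all genes. Each of these medians was larger without embryo replicate 1. These lists share genes with each other, so their medians are not independent. In the over-expression controls the median was 0.74 for dorsal closure, 0.53 for cell polarity, 0.50 for extracellular structure and 0.81 for the immune list. It was 0.17 for striated muscle and 0.43 for synapse organization, against 0.43 over all genes. In the ttk mutants these medians were 0.34, 0.03, 0.29, 0.37, 0.28 and 0.29 in the same order, against 0.19 over all genes.

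A pair of lists came from the over-expression arrays. Genes of chitin metabolism, which build the cuticle and the matrix inside tracheal tubes, had a median log2 fold change of 0.02 over 27 genes. In each direction 1 was a candidate, 3.7% of the list, against 8.54% of all genes higher and 4.36% lower. The median log2 fold change of the list was −0.52 as deposited, 0.52 without embryo replicate 2 and −0.26 without embryo replicate 1. Their median centred level was −3.39 and −2.48 in embryos and −3.58, −3.31 and −3.51 in cells, so most of them were weakly expressed in both materials. Genes of cell fate commitment had a median of 0.18 over 9 genes. Of them 1 was a candidate for higher expression, 11.1% against 8.54% of all genes. Here too embryo replicates decided the sign of the median, with −1.04 without embryo replicate 2 and 1.44 without embryo replicate 1.

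Another 4 lists were chosen by the study on ttk mutants against the controls used here, 3 of them on embryos and 1 on cells, so these arrays had a part in the choice and the counts are given as a description. Of 9 measured genes of eggshell chorion assembly, 2 were higher and 1 lower, 22.2% and 11.1% against 8.54% and 4.36% of all genes. Their median log2 fold change was 0.36, and −0.19 as deposited. Of 29 measured genes of G-protein coupled receptor signalling, chosen on cells and cut short in the copy used, 5 were higher and 1 lower. These were 17.2% and 3.45% of that list, with a median of 0.27, and −0.28 as deposited. Of 11 measured genes of the maternal determination of the anterior and posterior axis, 6 were candidates for lower expression in cells, 54.5% of them against 4.36% of all genes, and 2 for higher. Their median log2 fold change was −1.0, with a range from −4.28 to 1.52, and their median centred level was 0.23 and −0.73 in embryos and −2.35, −1.62 and −1.52 in cells. Every cell array lay below both embryo arrays in this median. Of 28 measured genes from the cell cycle list, also cut short, 8 were candidates for lower expression and 0 for higher. The 8 were 28.6% of them, against 4.36% of all genes. Their median log2 fold change was −0.40 and their median centred level was 0.22 and −0.60 in embryos and −0.99, −1.25 and −0.89 in cells. The median log2 fold change was 0.00 without embryo replicate 1 and −0.97 without embryo replicate 2.

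The control pair of the over-expression experiment gave a separate measure of the same sort on arrays of its own. There 2824 genes were candidates for higher expression in cells, 22.3%, and 1141 for lower expression, 9%. Of the 1083 genes higher in the mutant controls, 803 were higher there as well, 74.1% of this list and 28.4% of the longer one, and 2 were candidates for lower expression. Of the 553 lower genes, 337 were lower there as well, 60.9% of this list and 29.5% of the other, and 8 were candidates for higher expression. In the ttk mutant embryos and cells, 614 of the 1083 and 306 of the 553 passed in the same direction, 56.7% and 55.3%, where 13.8% and 10.9% of all genes did. In all 3 comparisons, 529 genes were higher and 212 were lower in sorted cells.

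The tracheal and midline genes had positive log2 fold changes in all 3 comparisons. In the mutant controls those of trh, btl, dys and sim all missed an adjusted p of 0.05, as given above. That of dys was 1.69 in the mutant controls, 1.38 in the over-expression controls and 0.42 in the ttk mutants, where its limma adjusted p was 0.353. The centred log2 fold change of trh was 1.61 in the mutant controls, 2.10 in the over-expression controls and 1.15 in the ttk mutants, that of btl was 1.13, 2.59 and 1.71, and that of sim 1.68, 2.42 and 1.14. For srp the values were 3.19, 1.88 and 2.00, and LanA had 2.72, 1.66 and 1.91. The fall of twi was −0.81, −1.85 and −1.26. None of these 6 genes differed between the mutant and the over-expression controls at an adjusted p of 0.05 in limma, and the difference for srp was 1.31 (SE 0.75, limma adjusted p = 0.349) and for btl −1.45 (SE 0.71, limma adjusted p = 0.282). A p of this size does not show that the 2 sorts gave the same result. Over all genes 612 differed between the controls at an adjusted p of 0.05, 4.83%, with 499 enriched less in the mutant controls, 3.94%, and 113 more, 0.891%. That count was 4951 without embryo replicate 1, 1026 without embryo replicate 2, 354 without cell replicate 1 and 336 without cell replicate 3. Of the named genes, Idgf3, a secreted chitinase-like growth factor, was at 0.13 in the mutant controls and 2.64 in the over-expression controls. It had 8.47 and 9.35 in embryos and 8.53, 8.98 and 7.99 in cells, with overlapping groups.

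**Figure D3:**
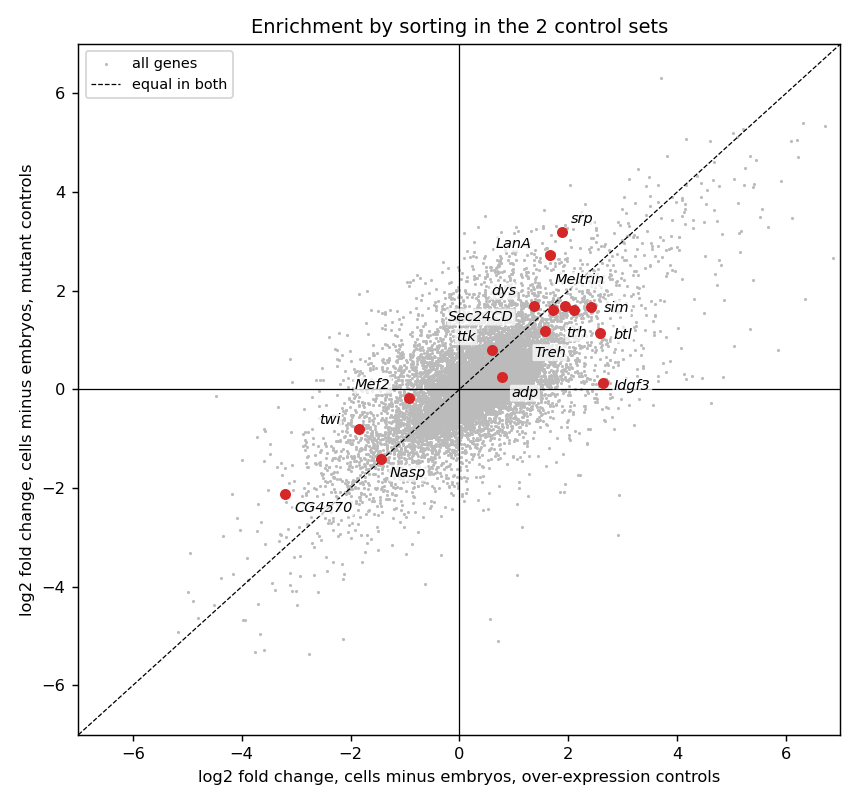
Log2 fold change of sorted cells minus embryos in the over-expression controls (x axis) and in the mutant controls (y axis), 1 grey point per gene, with 16 named genes in red and a dashed line where both are equal. The points of trh, btl and sim lie below the line and those of srp and LanA above it.

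The over-expression controls also allowed each array of the mutant controls to be read on genes that were not chosen from it. In them 605 genes were at least 2 log2 units higher and 292 at least 2 lower in cells, at an adjusted p of 0.05 from limma and without overlap of the groups, a limit chosen after the data were seen. In the mutant controls 56.9% of the 605 were candidates for higher expression, against 8.54% of all genes, and 43.8% of the 292 for lower expression, against 4.36%. The median centred level of the 605 genes was −0.95 and 0.23 on the embryo arrays and 2.06, 1.38 and 0.95 on the cell arrays. The median of the 292 genes was 0.58 and 0.58 in embryos and −1.81, −1.06 and −1.28 in cells. Cell replicate 1 was thus the farthest from the embryos in both sets. Cell replicate 3 had the lowest level of the higher set, and 73.1% of the 605 genes were above both embryo arrays on it, against 82.8% and 81.8% on replicates 1 and 2. Over all genes these shares were 46.4%, 47.5% and 35.5%. Of the 292 genes, 83.9%, 66.8% and 67.8% were below both embryo arrays on cell replicates 1, 2 and 3. Over all genes the shares below both were 24.7%, 30.6% and 21.4%. The median log2 fold change of the sets, 1.62 and −1.59, became 1.81 and −1.84 without cell replicate 3.

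**Figure D4:**
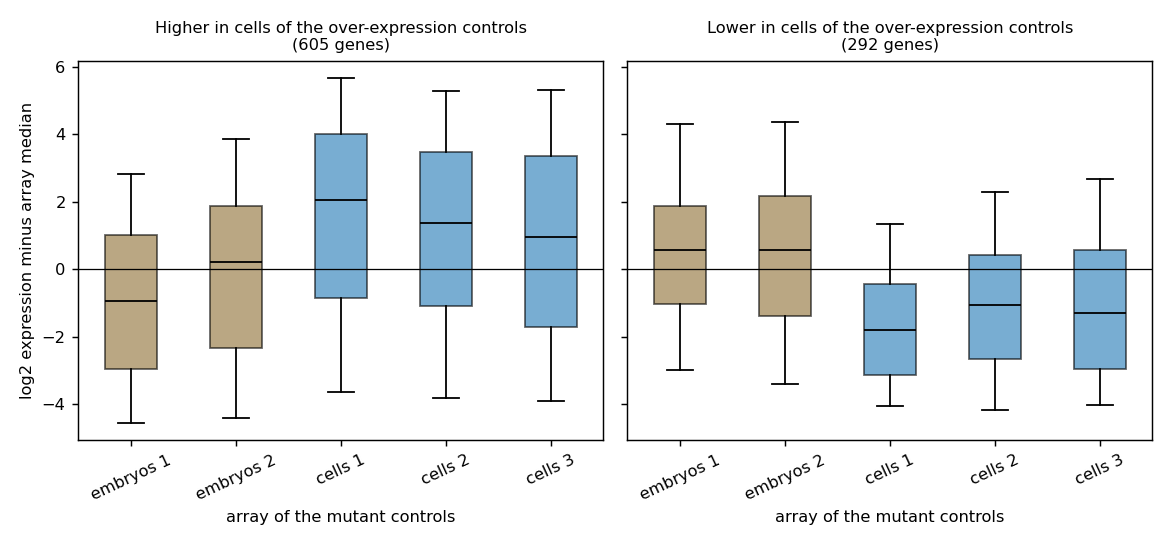
Log2 expression minus the array median (y axis) on the 5 arrays of the mutant controls for the genes at least 2 log2 units higher (left, 605 genes) or lower (right, 292 genes) in cells of the over-expression controls. Boxes span the quartiles with the median as a line, whiskers the 5th to 95th percentile. On the left the medians of all 3 cell arrays lie above those of the embryo arrays, and on the right all lie below them.

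The 2 embryo arrays differed by as much as many genes differed between cells and embryos. On embryo replicate 2, 775 genes were at least 2 log2 units above embryo replicate 1 and 899 were at least 2 below it. For the 775 genes the median centred level was −1.61 and 1.42 in embryos and −1.16, 0.23 and −1.54 in cells. Cell replicate 2 was the highest cell array for 573 of them, 73.9%. Among named genes this was seen for Vajk4, of a family of cuticle proteins, with 7.04 and 9.86 in embryos and 5.82, 10.06 and 5.44 in cells, and for CG13285, with 5.72 and 10.69 in embryos and 5.13, 9.83 and 3.76 in cells. For both genes 1 embryo array and 1 cell array were high and the others low, so that no mean stands for the group. For the 899 genes the median was 1.74 and −1.21 in embryos and 1.65, 1.35 and 1.66 in cells, so that the cells were level with embryo replicate 1. LanA, srp and ttk were among the 899 genes, but LanA and srp were higher on every cell array than on embryo replicate 1. Of the control features, 1 for Gapdh had 9.88 and 12.13 in embryos and 9.69, 10.85 and 9.60 in cells, while another for Gapdh had 9.37 and 9.71 in embryos and 8.53, 8.59 and 8.77 in cells. The age, the handling or the RNA of single samples could not be read from the labels, and their part in these differences was not tested.

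**Figure D5:**
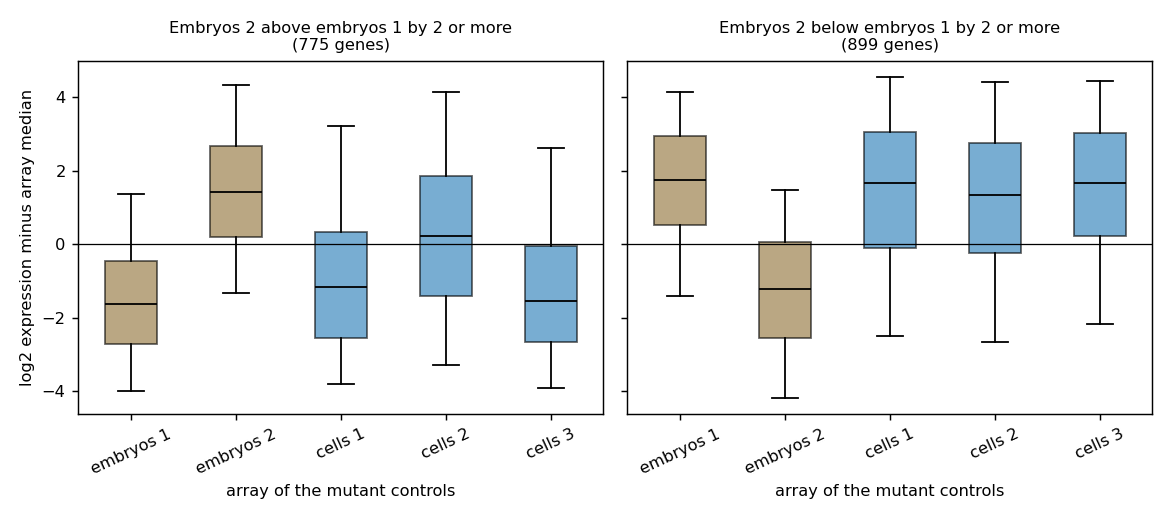
Log2 expression minus the array median (y axis) on the 5 arrays for the 775 genes at least 2 log2 units higher (left) and the 899 genes at least 2 lower (right) on embryo replicate 2 than on embryo replicate 1. Boxes span the quartiles with the median as a line, whiskers the 5th to 95th percentile. On the left cells 2 lie above cells 1 and 3, and on the right all cell arrays lie near embryos 1.

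Integrity of the RNA was read from array features at both ends of the same transcript. The deposited value of the 3′ feature of Act5C minus that of its 5′ feature was 2.24 and 2.23 in embryos and 2.66, 1.50 and 1.29 in cells. For Gapdh it was 2.85 and 2.96 in embryos and 3.40, 2.71 and 2.78 in cells, and for eIF-4a 1.09 and 0.87 in embryos and 1.95, 1.19 and 1.18 in cells. Cell replicate 1 had the highest centred values of trh, btl, dys, sim and srp. It thus also had the largest gap between the transcript ends in all 3, and the part of this gap in the enrichment was not tested.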

How the data were processed

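RNA of whole embryos and of sorted cells was amplified isothermally and hybridised to 1-colour Affymetrix Drosophila Genome 2.0 arrays. The deposited log2 values hold 1 number per array for each of 12679 FlyBase genes, and another 182 control features, which were left out of the tests. The submitters' processing notes name RMA. The study's authors described a gene-based chip definition and no early normalization between groups, and left out 1 control embryo array after quality control, which was not analysed here. All columns of the table were samples of the study.

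Each array was centred on its median over the genes. Groups of the sample labels were compared with limma 3.58.1 in R 4.3.3, 3 cell against 2 embryo arrays, with default moderation, two-sided, and Benjamini-Hochberg adjustment over all genes. The difference between control sets was a contrast over 10 arrays. The over-expression controls and the ttk mutants were fitted in the same way, each on its own arrays. The fit was tested on simulated data. The study's authors call the arrays of a group biological replicates. The number of arrays limits the precision.

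Named genes were 17 markers of cell types, of which 9 could be paired, up to 4 per marker list in each direction among candidates whose groups did not overlap, and up to 10 rises and falls at an adjusted p of 0.05 with a symbol. Others were named after their values were seen. Of 27 marker lists (trachea, midline, haemocytes, mesoderm, muscle, neurons, glia, fat body, gut, germ line, cell cycle and others) 6 had a paired member, at most 3 of a list, so none was summarised. The RefSeq table (Release 6) matched 105 FlyBase numbers, 2 with several symbols, which were not named. Members and lists were chosen with earlier results of these data known. Gene Ontology lists follow the study's annotation, some of them cut short in the copy used.

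Alternatives were no centring, quantile normalization, filters on low or repeated values, all 4 groups in 1 fit, an intensity trend, array weights, a replicate block and leaving out each array.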

Additional observations from a re-analysis of the deposited data

Results flagged for a closer look

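In 7 of the named genes the log2 fold change of sorted cells over embryos differed between the mutant and the over-expression controls at an adjusted p of 0.05 (limma, contrast on 4 groups of arrays). They are 6.25% of the 112 named genes, against 4.83% of all genes. All 7 were enriched less in the mutant controls. The difference was −2.50 for Idgf3, −2.38 for bb8, −1.51 for mAcon2, −1.46 for Flad2, −1.18 for S-Lap4, −1.17 for CG17666 and −0.98 for Mst98Ca. In the mutant controls Mst98Ca, S-Lap4, CG17666, Flad2 and mAcon2 had deposited values below 4 on every array, near the floor. The over-expression arrays were reared at another temperature, and that and the experiment cannot be told apart.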

How the results depend on the processing

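The counts by the study's thresholds, 1083 higher and 553 lower, were 399 and 1810 as deposited and 760 and 701 after quantile normalization, so the share of higher calls was 66.2%, 18.1% and 52%, and the scaling decides which direction has more genes. With genes below the median level left out, 165 genes were lower. At an adjusted p of 0.05 the counts, 33 and 41, were 213 lower as deposited, 9 lower without genes below the median, 22 lower without genes of repeated values, 719 and 303 with all 4 groups in 1 fit, 642 and 153 with an intensity trend, and 0 and 0 with array weights, where the study's thresholds still called 1103 and 440. A replicate block left cell replicate 3 without a partner; in that fit 850 genes were lower by the study's thresholds and 0 and 0 passed the adjusted p, with 1153 higher by the study's thresholds. Deviations from the group mean correlated at 0.164 between the arrays numbered 1 and at 0.435 between those numbered 2, and at 0.39 between embryo replicate 1 and cell replicate 3, so the numbers were not taken as pairs. Leaving out each array in turn gave 651 to 2138 higher and 372 to 1297 lower by the study's thresholds, 0 to 1401 and 0 to 733 at the adjusted p, and 336 to 4951 genes that differed between the control sets, against 612. The highest of each came without embryo replicate 1, which leaves 1 embryo array assumed to vary like the cells, and the adjusted calls were 0 without any 1 of the cell arrays. Of the 72 named genes above 0 after centring, 32 were below 0 as deposited, and 0 turned the other way. Among the 20 genes run under every alternative the sign turned for adp, to −0.30 as deposited, and with single arrays left out for adp (−0.11 to 0.60, lowest without embryo replicate 1), Mef2 (−0.79 to 0.44, highest without embryo replicate 1, and 0.01 without cell replicate 1) and ttk (−0.43 without embryo replicate 2 to 2.03 without embryo replicate 1), and the cause was not tested. Centring on genes of glycolysis and oxidative phosphorylation was not run, as these could not be named. Leaving out each mutant control array, no centring and quantile normalization were added for the difference between control sets after the data were seen, with 517 and 456 genes for the scalings.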

Other observations

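Takl1 had deposited values of 3.15 and 3.95 in embryos and 5.91 on cell replicate 2, against 3.26 and 3.12 on the other cell arrays. CG33272 had 7.87 and 9.80 in embryos and 2.79, 7.73 and 4.14 in cells, a log2 fold change of −3.40 with limma adjusted p = 0.279. CG15282 had 11.54 and 12.19 in embryos and 8.33, 11.43 and 9.37 in cells. In all 3 genes cell replicate 2 was the highest cell array. The neuromuscular scaffold gene metro had 7.67 and 8.82 in embryos and 6.53, 6.99 and 6.61 in cells, lower on every cell array than on either embryo array, with a log2 fold change of −0.99 (SE 0.40, limma adjusted p = 0.243). Deposited levels of the 3′ features of Act5C and eIF-4a differed between the group means of cells and embryos by 0.00 and 0.01. Another 3′ feature of actin differed by 0.45, and 3 such features of Gapdh by −0.96, −0.91 and −1.47.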
